A study of Rattus norvegicus with 294 samples.

Results

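The material was vertebral bone lining cells taken 12 weeks (84 days) after the last possible dose of a low-dose sclerostin antibody, and the members were the arrays labelled as lining cells on day 267. There were 10 of them among the 294 arrays of the series and the 100 lining cell arrays: 5 from rats that had received 3 mg/kg of the antibody (Scl-Ab) once a week until day 183, and 5 from rats that had received the vehicle. All were female Sprague Dawley rats ovariectomized at 6 months of age and left untreated for 8 weeks before dosing, so the vehicle rats carried the ovariectomy too. Lining cells were enriched by laser capture from frozen sections of the third lumbar vertebra, guided by a fluorescent label of forming bone surfaces, and the design gives the first 5 animals of each group as the source, so each array stands for a different rat. Each array carried RNA amplified from 1.5 ng. Groups used beside them were the lining cells of 3 mg/kg and vehicle rats on day 183, the last day of the dosing period, and on day 197 of the treatment-free period, those of 50 mg/kg and vehicle rats on days 237 and 309, and the osteocytes and osteoblasts of the same rats' groups on day 267.

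Sclerostin is a protein secreted mainly by osteocytes that binds the Wnt co-receptors LRP5 and LRP6, and an antibody against it releases Wnt signalling and raises bone formation. Lining cells are flat cells of the osteoblast lineage that cover bone surfaces at rest, and they can return to matrix formation when sclerostin is blocked. The treatment-free groups ask what is left in these cells when dosing has ended.

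Levels are log2 of the deposited RMA intensity, and differences are 3 mg/kg minus vehicle on that scale unless said otherwise. A gene was called where limma's Benjamini-Hochberg adjusted p over all genes tested was under 0.05. Array medians on day 267 lay between 3.14 and 3.23. The signal range of an array, taken as its 90th minus its 50th percentile, was 3.44 ± 0.07 in 3 mg/kg arrays and 3.27 ± 0.13 in vehicle arrays (SD, n = 5 each). The difference of 0.17 had an exact two-sided permutation p of 0.0317, with 0.00794 the smallest that 5 against 5 arrays allow. Vehicle replicates 1 and 5 had the narrowest ranges, 3.11 and 3.18, and the main counts are also given without both.

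Both groups carried osteoblast lineage transcripts at high levels. Col1a2, a chain of type I collagen, ranged from 9.01 to 11.27 in 3 mg/kg arrays and from 8.74 to 10.58 in vehicle arrays. Bglap, which encodes osteocalcin, ranged from 7.13 to 8.92 and from 6.51 to 8.25 in the same order. The osteocyte genes Sost, Phex and Fgf23 lay below the array medians in both groups. Dmp1 and Mepe, also osteocyte genes, lay above them. Dmp1 ranged from 4.66 to 6.42 in 3 mg/kg arrays and from 3.60 to 5.05 in vehicle arrays. Mepe ranged from 4.33 to 6.24 and from 4.55 to 5.12 in that order. Some transcripts of other cells were among the brightest. Ctsk, the osteoclast protease, averaged above the 99th percentile of probe sets in both groups. So did Hbb of erythroid cells, S100a8 and S100a9 of granulocytes, Cd68 of macrophages and Pf4 of megakaryocytes. Other markers of these cells were lower, with Calcr of osteoclasts at percentiles 13.3 in 3 mg/kg and 17.9 in vehicle arrays. In that order Ppbp of megakaryocytes was at 74.6 and 78.7 and Csf1r of macrophages at 92 and 92.4. Pecam1 of endothelial cells was at 56.5 and 54.5, Adipoq of adipocytes at 90.5 and 83.7. In such captured material fewer cells of a type and less RNA per cell cannot be told apart.

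Day 267 differed from vehicle mostly upward. Of 11600 genes tested, 103 rose in the 3 mg/kg lining cells (0.888%) and 7 fell (0.0603%), together 110 (0.948%). The rises ran from 0.47 to 1.44, that is 1.39-fold to 2.71-fold, with a median of 0.76, and 20 of the 103 exceeded 1. The median over all genes tested was 0.02, and 53.7% of them were above 0. For 76 of the 103 the lowest 3 mg/kg array was above the highest vehicle array, against 3.67% of all genes tested. All 5 treated arrays were above the vehicle mean for each of the 103. Both counts follow from the choice of the genes by these arrays and are no separate support. Their vehicle means ran from 2.67 to 11.51, and 15 of them had a vehicle mean under the array median of 3.18. Without an adjustment, 1510 genes had p under 0.05, 1134 of them higher. The calls depended on single arrays of both groups. Without 3 mg/kg replicates 1, 2, 3 and 5 in turn 66, 51, 35 and 40 genes passed, and 9 and 24 without vehicle replicates 1 and 5 in turn. Without both of these vehicle arrays 0 passed, and the median of the 103 genes was 0.64. All 110 kept their sign in every setting tried. The genes were chosen by these same arrays, so neither this median nor the kept signs are separate support.

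**Figure D1:**
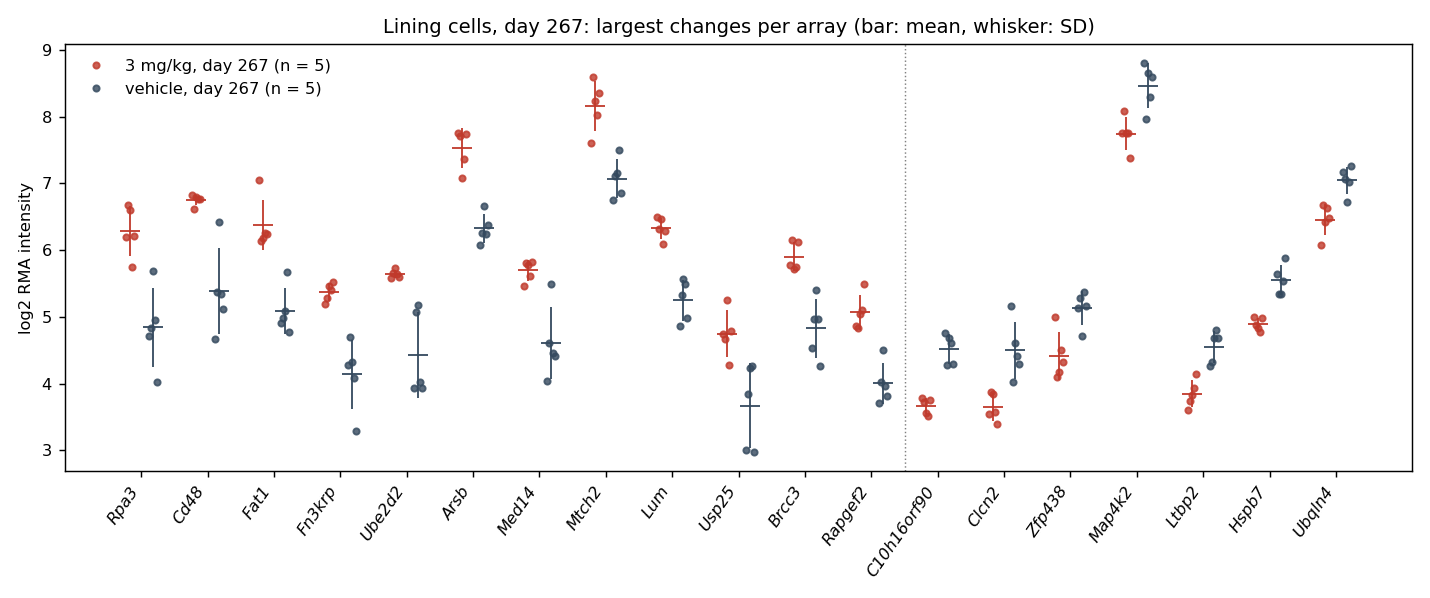
Log2 RMA intensity of the 12 genes that rose most and of the 7 that fell (gene symbols on the x axis), with a point per array, a bar for the mean and whiskers for the SD, 3 mg/kg at the left and vehicle at the right of each pair (n = 5 each). Groups do not overlap for 11 of the 12 that rose, against 3.67% of all genes tested in that direction. They do not overlap for 5 of the 7 that fell, against 1.51%. The genes were chosen by these values. Vehicle arrays are the more scattered for Cd48, Ube2d2 and Usp25.

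The promoters of 4 genes are printed because Lum is the only bone matrix gene of the list that rose, and the other 3 are the genes with the largest rises among those whose promoter held CTTTGA, the core letters bound by the TCF/LEF factors of Wnt signalling. Each runs 5′ to 3′ on the gene's strand, from 250 bases before to 50 after the start in RefSeq (GRCr8), with CTTTGA or its complement on the other strand (TCAAAG) in capitals. Lum lies at chr7:34245456-34245755 (plus strand), Cd48 at chr13:86717744-86718043 (plus), Atp6ap2 at chrX:12883621-12883920 (minus) and Vps26b at chr8:33696083-33696382 (minus).
Lum: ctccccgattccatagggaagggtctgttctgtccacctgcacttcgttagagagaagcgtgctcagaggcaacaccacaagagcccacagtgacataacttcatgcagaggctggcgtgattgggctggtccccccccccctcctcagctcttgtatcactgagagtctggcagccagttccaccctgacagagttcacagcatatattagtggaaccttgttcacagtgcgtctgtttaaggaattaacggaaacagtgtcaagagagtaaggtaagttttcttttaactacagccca
Cd48: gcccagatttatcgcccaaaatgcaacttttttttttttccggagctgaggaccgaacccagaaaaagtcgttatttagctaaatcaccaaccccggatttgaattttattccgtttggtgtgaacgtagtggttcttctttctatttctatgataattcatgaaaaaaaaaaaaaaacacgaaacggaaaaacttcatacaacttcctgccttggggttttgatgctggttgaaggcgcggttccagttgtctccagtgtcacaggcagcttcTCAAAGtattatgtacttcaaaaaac
Atp6ap2: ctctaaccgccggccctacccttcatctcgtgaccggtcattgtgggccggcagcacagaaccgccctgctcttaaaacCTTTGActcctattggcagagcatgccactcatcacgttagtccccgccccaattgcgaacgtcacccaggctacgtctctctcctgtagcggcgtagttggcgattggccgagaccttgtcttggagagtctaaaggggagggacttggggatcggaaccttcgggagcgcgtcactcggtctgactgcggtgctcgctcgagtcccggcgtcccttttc
Vps26b: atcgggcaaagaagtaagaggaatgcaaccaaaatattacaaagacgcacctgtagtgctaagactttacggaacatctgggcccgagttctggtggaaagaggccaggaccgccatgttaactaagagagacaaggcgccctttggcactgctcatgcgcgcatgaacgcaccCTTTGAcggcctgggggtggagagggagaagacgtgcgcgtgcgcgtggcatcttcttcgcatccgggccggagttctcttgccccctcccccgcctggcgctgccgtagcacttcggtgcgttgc
Promoters were listed for 89 of the 103 genes that rose, and 7 of the 89 held CTTTGA on either strand (7.87%), against 1158 of 9645 promoters of all genes tested (12.01%). The TATA box letters TATAAA were in 7 of the 89 (7.87%), against 7.30% of the 9645. CCAAT was in 34 (38.2%), against 37.5%. The median GC content was 61.0% in the 89 and 60.7% in the 9645. None of the 7 promoters of the genes that fell held CTTTGA. A match in these letters is a description and not a binding site.

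The largest rise was that of Rpa3. The gene encodes the smallest subunit of the single-strand DNA binding replication protein A, and it was at 6.20, 6.67, 6.60, 5.75 and 6.22 in 3 mg/kg arrays, against 4.72, 4.84, 5.69, 4.95 and 4.03 in vehicle arrays. The groups did not overlap, although the lowest treated and the highest vehicle array lay close together, and the difference was 1.44 (SE 0.23, adjusted p = 0.000164). Brcc3, a deubiquitinase of the BRCA1-A complex, was at 5.78, 6.15, 5.72, 5.75 and 6.12, against 4.53, 4.97, 5.41, 4.97 and 4.26 in vehicle. Every 3 mg/kg array was above every vehicle array, by 1.08 on average (SE 0.22, adjusted p = 0.00333). Trim35, of the TRIM family of ubiquitin ligases, was at 7.80, 7.70, 7.20, 7.38 and 7.73 in 3 mg/kg arrays, against 6.29, 6.52, 6.57, 6.84 and 6.51 in vehicle. Its groups were apart as well, with a difference of 1.02 (SE 0.20, adjusted p = 0.00333).

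Nup153, a nuclear pore protein, was at 3.78, 3.78, 3.75, 3.62 and 3.75 in 3 mg/kg arrays, against 2.85, 3.05, 2.95, 3.23 and 2.52 in vehicle. Zbtb6, a zinc finger protein with a BTB domain, was at 3.77, 3.58, 3.86, 3.57 and 3.21, against 2.55, 2.73, 2.91, 2.71 and 2.93 in vehicle. Maml1, a coactivator of Notch transcription, was at 4.18, 3.92, 3.80, 4.33 and 3.75, against 3.40, 3.53, 3.28, 3.12 and 3.46 in vehicle. None of these 3 genes had an overlap between groups, and their differences were 0.81, 0.83 and 0.64 (adjusted p = 0.00333, 0.00265 and 0.00333). Their vehicle means of 2.92, 2.77 and 3.36 lay close to or under the array median.

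Among the other large rises, Ube2d2, a ubiquitin-conjugating enzyme, averaged 5.65 ± 0.06 in 3 mg/kg arrays and 4.43 ± 0.64 in vehicle arrays (SD, n = 5 each). Its vehicle arrays were at 3.93, 5.08, 5.18, 4.02 and 3.93, and the difference was 1.22 (adjusted p = 0.009). The call ended on leaving out either vehicle replicate 1 or 5, and the difference was 0.89 without both. Usp25, a deubiquitinase, averaged 4.75 ± 0.35 and 3.67 ± 0.64 in the same order, a difference of 1.08 whose call also ended without either array and which was 0.63 without both. Med14, a Mediator subunit, differed by 1.10 with groups that overlapped, at adjusted p = 0.049. Its call ended in 9 of 10 fits that each left out an array, and also with no filter, quantile normalization or the signal range as covariate. Mtch2, a mitochondrial outer membrane protein, differed by 1.09, Fn3krp, a kinase that reverses sugar adducts on proteins, by 1.23, and Rapgef2, an exchange factor for Rap GTPases, by 1.06. The calls of all 3 ended on leaving out vehicle replicate 1 or 5, that of Mtch2 also without 3 mg/kg replicate 2, that of Fn3krp without replicates 3 and 5 and that of Rapgef2 without replicate 5. Without both vehicle arrays Mtch2 was at 0.91, Fn3krp at 1.0 and Rapgef2 at 0.90.

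Lum, the bone matrix gene that passed, encodes lumican, a keratan sulfate proteoglycan that binds collagen fibrils. It was at 6.49, 6.32, 6.46, 6.09 and 6.29 in 3 mg/kg arrays, against 4.87, 5.33, 5.57, 5.49 and 4.99 in vehicle arrays. The groups were clearly apart, by 1.08 (SE 0.21, adjusted p = 0.00333). Ids, the lysosomal sulfatase that starts the breakdown of dermatan and heparan sulfate, was at 3.69, 3.87, 4.00, 3.86 and 3.76, against 2.70, 3.28, 3.23, 2.87 and 2.92 in vehicle, with every treated array above every vehicle array (difference 0.84, SE 0.15, adjusted p = 0.00178). Arsb, another lysosomal sulfatase that acts on dermatan sulfate, averaged 7.53 ± 0.30 in 3 mg/kg arrays and 6.33 ± 0.21 in vehicle arrays (SD, n = 5 each). Its groups did not overlap either, but the difference of 1.21 stood just inside the threshold (adjusted p = 0.049). Its call ended in 9 of 10 fits that each left out an array, and the difference was 0.91 or more in every setting.

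M6pr, a receptor that carries lysosomal enzymes, rose by 0.82 (SE 0.17, adjusted p = 0.00678), and Fam20b, the kinase that primes the sugar chain of proteoglycans, by 0.60 (adjusted p = 0.036). The probe sets of Fam20b disagreed, with -0.19 and -0.17 on the other tested ones, and its call ended in 7 of 10 fits without an array. Atp6ap2, an accessory protein of the vacuolar proton pump that also takes part in Wnt receptor signalling, rose by 0.97 (adjusted p = 0.0254). Vps26b and Vps29, retromer subunits that return cargo from endosomes, rose by 0.85 and 0.87 (adjusted p = 0.0343 and 0.033) with overlapping groups. The calls of Atp6ap2, Vps26b and Vps29 ended in 6, 6 and 8 of 10 fits without an array. Each also ended with quantile normalization or the signal range as covariate. M6pr, Fam20b, Atp6ap2, Vps26b, Vps29, Ptprc, Trim35, Ids, Nup153, Zbtb6 and Maml1 were picked for description after their values were seen.

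Leukocyte surface genes were also among the 103. Cd48, an adhesion molecule of blood cells, was at 6.82, 6.62, 6.79, 6.77 and 6.76 in 3 mg/kg arrays, against 4.67, 5.38, 6.42, 5.35 and 5.12 in vehicle. The treated arrays were tightly bunched and the vehicle arrays spread over more than a log2 unit, with a difference of 1.36 (SE 0.29, adjusted p = 0.00556). The call ended without vehicle replicate 1, and the difference was 1.01 or more in every setting. Ptprc, the common leukocyte antigen CD45, rose by 0.73 (adjusted p = 0.0336). Its call ended in 7 of 10 fits that each left out an array. It also ended with quantile normalization, the mean of probe sets or the signal range as covariate. Beside Cd48 and Ptprc, 0 of the 20 macrophage markers tested passed, 16 were above 0 and their median was 0.22. Of 11 B-lineage markers 0 passed, 9 were above 0 and the median was 0.21. Over all genes tested 53.7% were above 0, with a median of 0.02. The mean level of the macrophage markers per array ran from 7.34 to 7.49 in 3 mg/kg arrays and from 7.01 to 7.28 in vehicle arrays, without overlap. That of the B-lineage markers overlapped, at 5.68 to 6.13 and 5.40 to 6.05. So did that of all genes tested, at 5.03 to 5.10 and 4.96 to 5.04. The part of any blood cell type in the Cd48 and Ptprc values was not tested. Fat1, a large cadherin, averaged 6.38 ± 0.38 in 3 mg/kg arrays and 5.08 ± 0.35 in vehicle arrays (SD, n = 5 each), with 1 treated array at 7.05 and the other four between 6.14 and 6.26. The Fat1 call ended in 7 of 10 fits that each left out an array. It also ended with quantile normalization or the signal range as covariate.

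Only 7 genes fell. Ltbp2, a microfibril protein of the latent TGF-beta binding protein family, was at 3.60, 3.74, 3.83, 3.93 and 4.14 in 3 mg/kg arrays, against 4.26, 4.33, 4.68, 4.81 and 4.68 in vehicle. Every treated array was below every vehicle array, and the difference was -0.70 (SE 0.18, adjusted p = 0.028). Clcn2, a chloride channel, was at 3.54, 3.88, 3.84, 3.58 and 3.40, against 5.16, 4.03, 4.61, 4.41 and 4.29 in vehicle, a difference of -0.85 (adjusted p = 0.0145) without overlap. C10h16orf90, an open reading frame named by its position, averaged 3.67 ± 0.12 in 3 mg/kg arrays and 4.52 ± 0.22 in vehicle arrays (SD, n = 5 each; difference -0.85, adjusted p = 0.0133).

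Hspb7, a small heat shock protein known from muscle, averaged 4.89 ± 0.09 in 3 mg/kg arrays and 5.55 ± 0.23 in vehicle arrays, and Ubqln4, which carries ubiquitinated proteins to the proteasome, averaged 6.46 ± 0.24 and 7.05 ± 0.21 in that order (SD, n = 5 each). Neither had an overlap between groups, and the differences were -0.66 and -0.59 (adjusted p = 0.0218 each). Zfp438, a zinc finger protein, and Map4k2, a kinase of the stress-activated pathways, fell by 0.72 and 0.71 with overlapping groups (adjusted p = 0.0218 and 0.0401). For Map4k2 the probe sets disagreed, since its other probe set was higher in 3 mg/kg arrays by 0.48 (unadjusted p = 0.0168). No gene of the 7 passed without vehicle replicate 1. The next 5 by unadjusted p, Stk38l, Tctn1, C2cd2l, Zc3h18 and Gpr4, lay between -0.64 and -0.45 and did not pass.

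**Figure D2:**
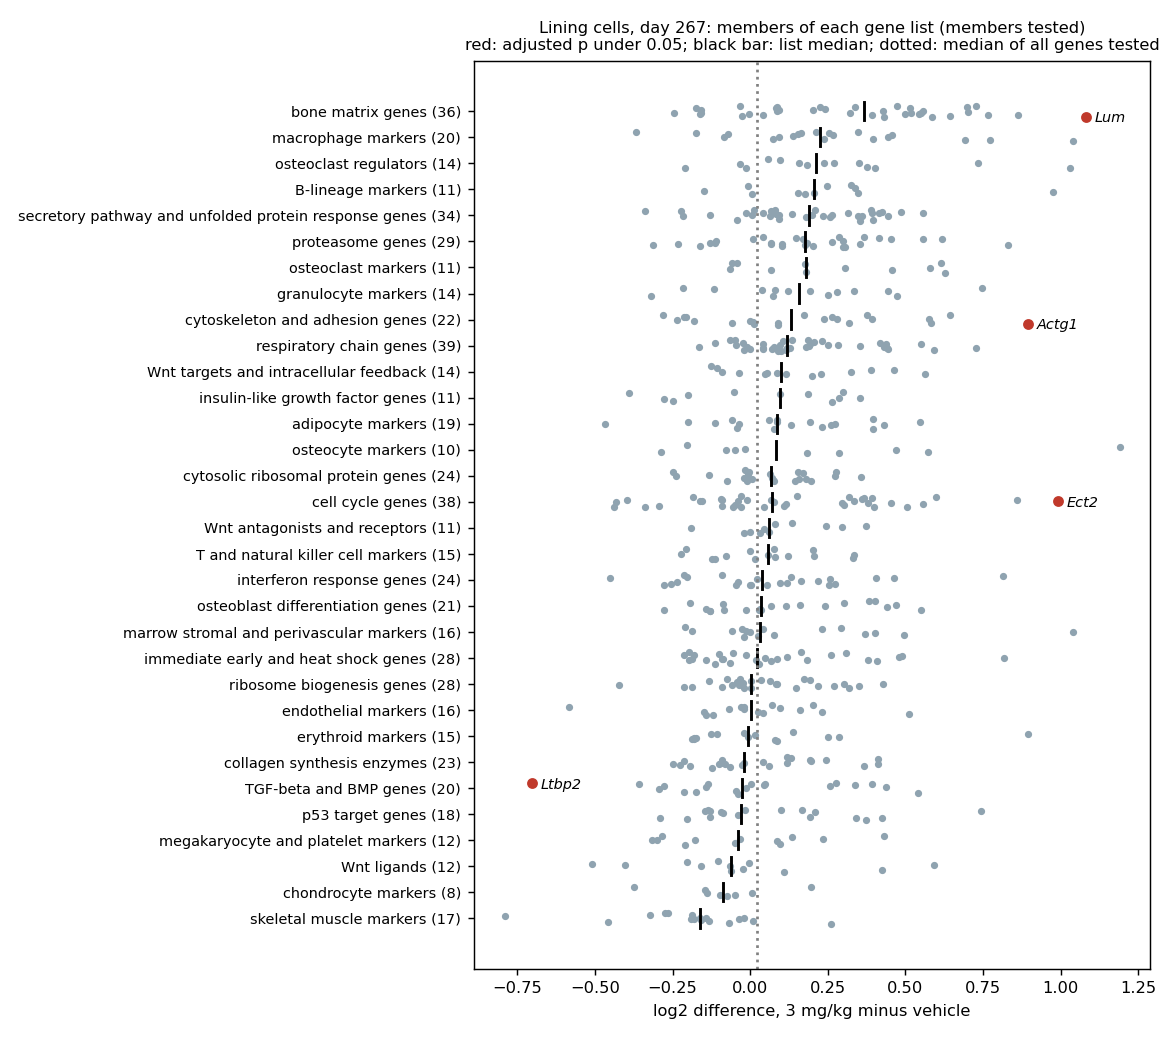
Log2 difference, 3 mg/kg minus vehicle, on the x axis for each tested member of the 32 gene lists on the y axis (number of tested members in brackets), with red points for the 4 called members, black bars for list medians and a dotted line at the median of all genes. Bone matrix genes have the highest median, 0.37, and skeletal muscle markers the lowest, -0.16.

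Of the 32 gene lists, 28 had no called member and 4 had 1 each, against the 0.948% called over all genes tested. Bone matrix genes had the highest median of all lists: 28 of 36 tested members were above 0 and the median was 0.37, but Lum alone passed. Fbn1 (fibrillin, 0.47), Col5a2 (0.77), Col3a1 (0.73) and Dcn (decorin, 0.70) had adjusted p from 0.106 to 0.304. Their mean level per array ran from 4.90 to 5.51 in 3 mg/kg arrays and from 4.73 to 5.00 in vehicle arrays, so that the groups overlapped. The other lists with a called member were the TGF-beta and BMP genes (Ltbp2, 1 of 20), the cell cycle genes (Ect2, which acts in cytokinesis, 0.99, 1 of 38) and the cytoskeleton and adhesion genes (Actg1, gamma-actin, 0.89, 1 of 22). The calls of Ltbp2, Ect2 and Actg1 ended in 6, 6 and 7 of 10 fits without an array. Each also ended with quantile normalization or the signal range as covariate, that of Ect2 also with no filter or the mean of probe sets. Actg1 was at 0.13 (SE 0.12) on its other probe set. Ccna2 (cyclin A) was at 0.86 and missed the threshold (adjusted p = 0.0605).

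The type I collagen genes differed strongly among rats of the same group. Col1a1 was at 10.16, 7.75, 7.75, 9.87 and 8.73 in 3 mg/kg arrays, against 7.97, 8.84, 8.69, 7.42 and 8.84 in vehicle arrays. Treated replicates 1 and 4 were above all vehicle arrays, and replicates 2 and 3 were below most of them, with a difference of 0.50 (SE 0.38, adjusted p = 0.609). Col1a2 (11.27, 9.14, 9.01, 11.00 and 9.93) and Sparc, which encodes osteonectin (7.69, 6.02, 5.97, 7.55 and 6.65), had replicates 1 and 4 highest as well. Bglap differed by 0.55 (SE 0.45, adjusted p = 0.651), Alpl, alkaline phosphatase, by -0.18 (SE 0.21, adjusted p = 0.797), and Postn, periostin, by 0.70 (SE 0.37, adjusted p = 0.419). The spread between rats was too wide for a difference of this size to be told from 0.

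No Wnt list had a called member. Of the Wnt antagonists and receptors 0 of 11 passed (median 0.06), of the targets and feedback genes 0 of 14 (median 0.10) and of the ligands 0 of 12 (median -0.06). Ctnnb1, beta-catenin, the protein that enters the nucleus when the pathway is active, did pass on its brightest probe set. It was at 10.60, 10.63, 10.41, 10.46 and 10.75 in 3 mg/kg arrays, against 9.75, 10.13, 10.28, 10.00 and 9.81 in vehicle. The groups did not overlap, and the difference was 0.58 (SE 0.15, adjusted p = 0.0357), with 0.53 (SE 0.29) on its other bright probe set and -0.05 and -0.18 on 2 dim ones. The call was lost in 7 of the 10 fits that each left out an array, and the gene was singled out after its values were seen. It was also lost with quantile normalization (0.40), the mean of probe sets (0.22) or the signal range as covariate (0.47). Without both vehicle replicates 1 and 5 the call was lost too, and the difference was 0.43.

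Of the 29 genes to be named whatever their values, 20 were tested, 6 were too dim and 3 had no probe set of their own. The secreted antagonists Sfrp4 (0.37, adjusted p = 0.364), Wif1 (0.29, adjusted p = 0.455) and Sfrp1 (-0.19, adjusted p = 0.591), the sclerostin co-receptor Lrp4 (0.24, adjusted p = 0.593), the factor Lef1 (0.05, adjusted p = 0.963) and the target Ccn4 (0.23, adjusted p = 0.654) did not pass. Sost itself was at 2.22 to 2.58 in 3 mg/kg arrays and at 2.45 to 2.65 in vehicle arrays, under the array medians. Dkk2, Axin2, Tcf7, Tnfrsf11b and Tnfsf11 were as dim, and Dkk1, Runx2 and Sp7 had no probe set listed to a single gene. Gng10, a G protein gamma subunit, was the only gene of the 29 to pass, at 9.06 ± 0.32 in 3 mg/kg arrays and 8.30 ± 0.26 in vehicle arrays (SD, n = 5 each; 0.76, adjusted p = 0.049). Its call ended in 8 of 10 fits without an array, and also with no filter, quantile normalization, the mean of probe sets or the covariate.

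No listed gene of bone resorption or of osteocytes passed. Mmp13, collagenase 3, was at 8.76, 7.95, 8.69, 9.10 and 9.05 in 3 mg/kg arrays, against 7.24, 7.53, 7.59, 8.13 and 7.92 in vehicle, a difference of 1.03 (SE 0.29, adjusted p = 0.0581). Dmp1, a matrix protein of osteocytes, averaged 5.67 ± 0.64 in 3 mg/kg arrays and 4.48 ± 0.58 in vehicle arrays (SD, n = 5 each), a difference of 1.19 (SE 0.43, adjusted p = 0.181). Ctsk differed by 0.58 (adjusted p = 0.418) and Acp5, tartrate-resistant acid phosphatase, by 0.61 (adjusted p = 0.538). None of the 14 osteoclast regulators, 11 osteoclast markers and 10 osteocyte markers tested passed, with medians of 0.21, 0.18 and 0.08.

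No marker list of another cell type had a called member. Beside the macrophage list above, the medians were -0.01 for 15 erythroid, 0.16 for 14 granulocyte, 0.21 for 11 B-lineage, 0.06 for 15 T and natural killer cell, 0.00 for 16 endothelial, 0.09 for 19 adipocyte -0.04 for 12 megakaryocyte, -0.09 for 8 chondrocyte and -0.16 for 17 skeletal muscle markers, the last with 2 above 0. Slc4a1, the red cell anion exchanger, lay at the threshold (0.89, adjusted p = 0.0501). In the macrophage list Aif1 (0.77), Mrc1 (0.69) and Vcam1 (1.04) had the smallest adjusted p, 0.0639, 0.0639 and 0.0779. Vcam1 is also in the stromal list. Fcgr1a (-0.367), Cx3cr1 (-0.175), C1qb (-0.084) and C1qc (-0.0711) of the macrophage list lay below 0. The part of other cell types in the results was not tested.

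At 3 mg/kg 0 of 11600 lining cell genes were called higher on day 183 or on day 197, so counts of calls say nothing of the 103 genes there. Their median difference was 0.00 on day 183, with 51 above 0, -0.21 on day 197, with 11 above 0, and 0.76 on day 267, by which they were chosen. Over all genes tested the medians were -0.01, -0.05 and 0.02, and 48.1%, 39.4% and 53.7% were above 0. After 50 mg/kg the same genes lay below vehicle: the median was -0.36 on day 237, with 12 above 0 and 12 called lower (all genes, 0.922% called lower), and -0.36 on day 309, with 7 above 0 and 5 called lower (all genes, 0.31%). Over all genes tested the medians on days 237 and 309 were -0.02 and -0.01, with 47% and 48.1% above 0. The signal range lay below vehicle as well, at 3.09 in 50 mg/kg and 3.24 in vehicle arrays on day 237. On day 309 it was at 2.9 and 3.05, and its part was not tested. Fn3krp differed by 0.31 on day 183, -0.39 on day 197 and 1.23 on day 267, and Lum by 0.09, -0.34 and 1.08 on the same days. These days have their own vehicle rats, and the doses and times of the 50 mg/kg groups differ from those of the 3 mg/kg groups.

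**Figure D3:**
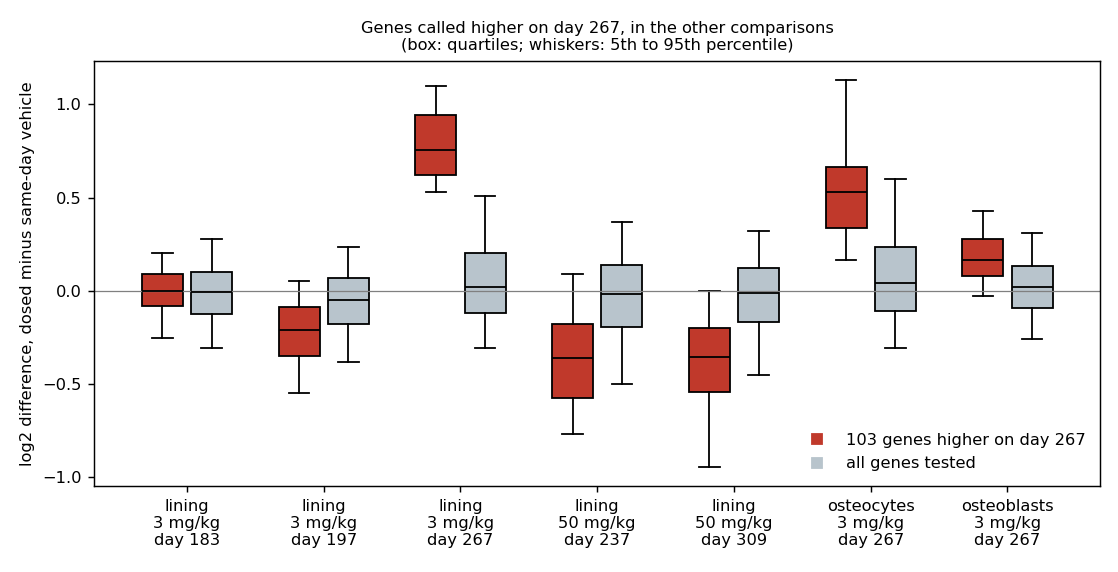
Log2 differences between dosed and same-day vehicle arrays for the 103 genes that rose on day 267 (red) and for all genes tested in lining cells (grey), as boxes of the quartiles with whiskers from the 5th to the 95th percentile, in each comparison on the x axis. The red median is 0.76 in day 267 lining cells, by which the genes were chosen, 0.53 in day 267 osteocytes and -0.36 at both 50 mg/kg days.

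The levels themselves differed between days on the vehicle side as well. Scan dates are not known, so a change in level between days cannot be told from a difference between array runs. The mean of the 103 genes per array was between 4.32 and 4.45 in 3 mg/kg arrays and between 4.35 and 4.46 in vehicle arrays on day 183. It was between 4.64 and 5.51 in 3 mg/kg arrays and between 5.37 and 5.74 in vehicle arrays on day 197. On day 267 it was between 5.65 and 5.89 in 3 mg/kg arrays and between 4.78 and 5.28 in vehicle arrays. The signal range moved with it, since its group means were 2.65 in 3 mg/kg and 2.67 in vehicle arrays on day 183, 3.24 and 3.39 on day 197 and 3.44 and 3.27 on day 267. With the signal range as a covariate 37 genes were called, 33 of them among the 110. The separation on day 267 is fixed by the choice of the genes.

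**Figure D4:**
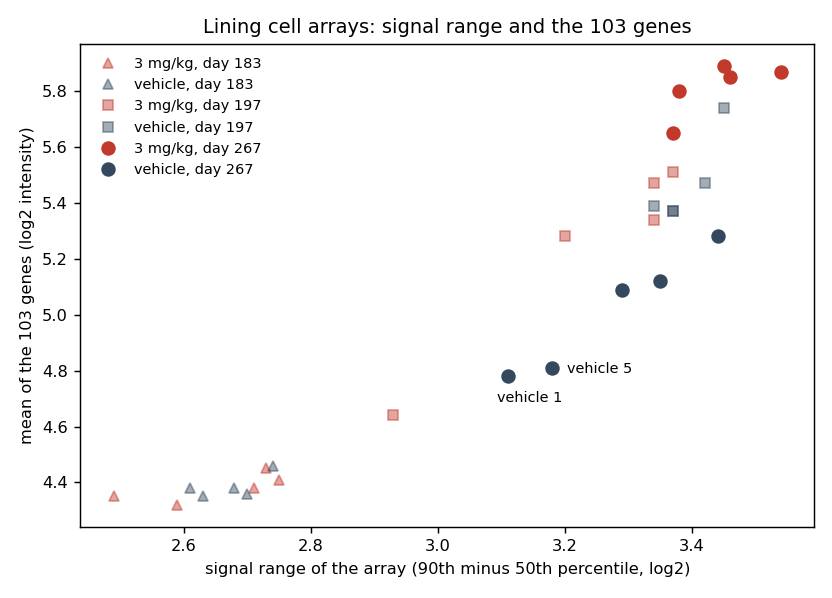
Mean log2 intensity of the 103 genes that rose on day 267 (y axis) against the signal range of the array (x axis), with a point per lining cell array, red for 3 mg/kg and dark blue for vehicle, and shapes for days 183, 197 and 267. Vehicle replicates 1 and 5 of day 267, marked, have the lowest ranges of that day, and all 5 treated arrays of day 267 lie above its vehicle arrays, by which the genes were chosen.

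The response on day 267 was also set against those on days 183 and 197, without a test between these changes. The response on day 267 minus that on day 183 had 0 called genes by limma, with 1214 at unadjusted p under 0.05 (785 of them higher), and the smallest adjusted p was 0.0538, for Rpa3 (1.44), Ubqln4 (-0.91), Mylk (myosin light chain kinase, 1.10), Trim35 (1.30) and Cdkn1c (a cyclin-dependent kinase inhibitor, 1.10). The response on day 267 minus that on day 197 had 134 called genes of 11600 (1.16%), 123 higher (1.06%) and 11 lower (0.0948%). The largest were not genes that rose on day 267. Col1a1 differed between the responses by 2.83 (SE 0.54, adjusted p = 0.00256), Col1a2 by 2.76 (SE 0.61, adjusted p = 0.00914) and Bglap by 2.66 (SE 0.63, adjusted p = 0.0187). Their own differences were 0.50, 0.43 and 0.55 on day 267, against -2.33, -2.33 and -2.11 on day 197, so most of the change lay on the earlier day. Adipoq, adiponectin of fat cells, followed (2.06, adjusted p = 0.0431), and Gpr4, a proton-sensing receptor, had the largest negative value (-1.32, adjusted p = 0.00617). Between 30 and 211 genes passed when single arrays were left out, the lowest count without 3 mg/kg replicate 5 of day 197, and 3 passed without vehicle replicates 1 and 5 of day 267.

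Osteocytes of day 267 gave values on the same side. Of the 103 genes, 101 were tested in osteocytes, 99 were above 0 and the median was 0.53, against 0.04 over all genes. 40 of the 101 (39.6%) were called higher there, where 3.38% of all genes were; they made up 10.0% of the 400 genes called higher in osteocytes. Cd48 was higher in osteocytes by 1.59 (adjusted p = 8.48e-06), Lum by 1.37 (adjusted p = 0.000526) and Ctnnb1 by 0.79 (adjusted p = 0.000599), while Ids (0.34), Maml1 (0.21) and Zbtb6 (0.31) did not pass there. Osteocyte arrays had signal ranges of 3.39 in 3 mg/kg and 3.20 in vehicle on average, and the captures come from the same groups of rats, so the cell types are not independent. In osteoblasts 90 of 102 were above 0 with a median of 0.16, against 54% above 0 and a median of 0.02 over all 11401 genes tested there, of which 0 were called higher.

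The lining cell response minus the osteocyte response had 0 called genes of 12323 by limma, with 373 at unadjusted p under 0.05. The smallest adjusted p, 0.0512, belonged to Wif1, a secreted Wnt inhibitor whose difference was 0.29 in lining cells and 1.61 in osteocytes, and to Ackr3, a scavenging chemokine receptor below the level filter in lining cells. Their differences between cell types were -1.32 and -1.88. On the other side Parpbp, a regulator of DNA recombination that rose by 0.65 in lining cells (adjusted p = 0.0288), was at -0.14 in osteocytes.

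Other probe sets of the same genes gave smaller differences. Of the 110 genes, 43 had 68 further probe sets, and 43 of those probe sets were bright enough to test. For the genes that rose, 24 of 41 such probe sets were above 0 with a median of 0.11. Of the 41, 7 were higher and 1 lower at an unadjusted p under 0.05. The lower one, named after its value was seen, was of Tsc1, a growth suppressor of the mTOR pathway that rose by 0.54 on its brightest probe set and was at -0.38 (SE 0.14) on the other. Ube2d2 was at 0.35 (SE 0.13) and Mtch2 at 0.25 (SE 0.22) on the other tested probe set, and Usp25 was at -0.09. Rpa3, Lum, Brcc3, Trim35, Ids, Maml1 and Nup153 had 1 probe set each.

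Across the settings planned, 8 of the 110 genes passed in every fit in which they were tested: Rpa3, Lum, Brcc3, Trim35, Ids, Maml1, Nup153 and Zbtb6, the last of which was too dim to test when probe sets were averaged. None of the 8 passed without both vehicle replicates 1 and 5, where their adjusted p by limma ran from 0.111 to 0.564. Rpa3 was at 1.13 and Lum at 0.86 there. Quantile normalization left 28 calls, 26 of them among the 110. In the fit of the compared groups alone there were 406 calls, and array weights gave 734.

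**Figure D5:**
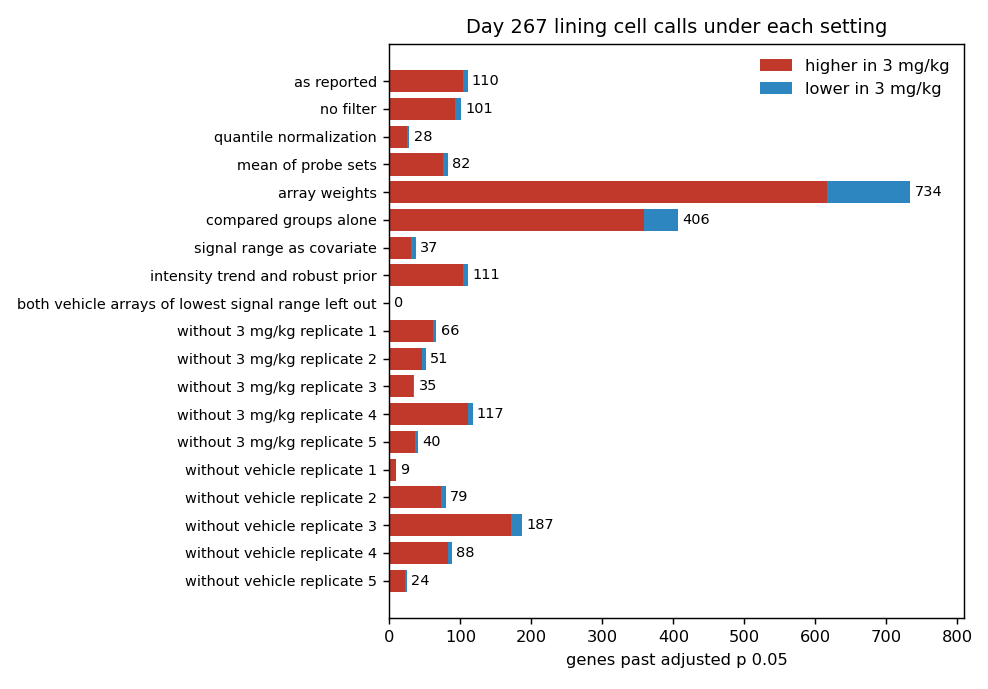
Number of genes past adjusted p 0.05 on the x axis, red for higher and blue for lower in 3 mg/kg, under each setting on the y axis. The count is 110 as reported, 9 without vehicle replicate 1, 0 without both vehicle arrays of lowest signal range and 734 with array weights.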

How the data were processed

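Lining cell RNA was measured on Affymetrix rat expression arrays. The deposited values are intensities, RMA signals that the authors left on a linear scale, and the submitters' processing notes name Affymetrix Expression Console, RMA, R 3.0.1 and affy 1.38.1. Detection calls and scan dates are not given in the sources used here, 5 arrays a group limit the precision, and no column was left unused (0).

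The log2 was taken. Replicate numbers only name arrays, in the order of deposition. Of 31042 probe sets, 20826 had 1 listed gene, 436 several and 9780 none. Each of 14217 genes was represented by its probe set of highest mean, and 11600 were above their array's median in at least 5 lining cell arrays. Limma 3.58.1 (R 4.3.3) fitted 20 group means over 100 arrays, with moderated tests and Benjamini-Hochberg adjustment. Promoters were matched by symbol. The fit was tested on simulated data: 94% of genes changed by 1 and 31% of those changed by 0.5 (log2) were recovered among 11600. Another 3 genes, unchanged, were called. The simulated noise was independent between genes, without a signal range that moves the genes of an array together. These shares may therefore not hold for the real arrays.

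The members, the 32 lists and the tests were chosen with earlier results of these data known. By rule the text names genes from the 12 largest rises and falls that passed (falls filled up by unadjusted p), the largest of the other 3 tests, up to 4 per list by p and 29 fixed genes. A part of these is printed. The lists were Wnt antagonists and receptors, Wnt targets, Wnt ligands, bone matrix, collagen synthesis, osteoblast differentiation, osteocyte, osteoclast regulator and marker, TGF-beta and BMP, insulin-like growth factor, secretory, ribosome biogenesis, ribosomal protein, respiratory chain, proteasome, p53, cell cycle, interferon, immediate early, cytoskeleton, stromal and 10 other cell type lists. Their members are described with counts and medians and were not tested as sets. Alternatives were no filter, quantile normalization, the mean of probe sets, array weights, the compared groups alone, the signal range as covariate, an intensity trend with a robust prior, each array left out in turn, and, added after the data were seen, vehicle replicates 1 and 5 left out together.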

Additional observations from a re-analysis of the deposited data

Results flagged for a closer look

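In 258 named genes, each with 2 groups of 5 arrays, 21 of the 516 groups (4.07%) held an array far from the other four by Dixon's 95% critical value, and chance gives about 5%. In 3 mg/kg arrays the far value was the highest for Fat1 (7.05 in replicate 1, the others 6.14 to 6.26), Psmc5 (9.69 in replicate 2, the others 9.14 to 9.26) and Klf4 (4.70 in replicate 1, the others 3.88 to 4.02). It was the lowest for Col3a1 (3.84 in replicate 4, the others 4.23 to 4.37), Cbfb (6.00 in replicate 1, the others 6.30 to 6.41), Mef2c (4.99 in replicate 2, the others 5.22 to 5.31), Fgfr1 (4.61 in replicate 2, the others 5.03 to 5.2), Htra1 (4.66 in replicate 3, the others 5.35 to 5.59), Camp (10.84 in replicate 1, the others 10.99 to 11.02), Aif1 (6.97 in replicate 5, the others 7.38 to 7.49), Vcam1 (7.26 in replicate 4, the others 7.73 to 7.92), Nup153 (3.62 in replicate 4, the others 3.75 to 3.78) and Tgif1 (3.82 in replicate 5, the others 3.99 to 4.03). In vehicle arrays it was the highest for Tctn1 (4.49 in replicate 1, the others 3.88 to 4.05), Adipoq (7.0 in replicate 3, the others 5.04 to 5.58), Gbp2 (5.01 in replicate 3, the others 3.57 to 3.88), Lipe (5.33 in replicate 5, the others 4.61 to 4.78) and Smarca2 (7.89 in replicate 2, the others 7.68 to 7.70), and the lowest for C2cd2l (5.16 in replicate 3, the others 5.43 to 5.52), Rps16 (11.92 in replicate 1, the others 12.50 to 12.63) and Slc13a5 (3.18 in replicate 3, the others 3.61 to 3.78).

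The response to 3 mg/kg differed between day 267 and day 197 for 134 genes by limma's test of the difference itself. Named genes with a larger value on day 267 (log2 difference of responses) were Rpa3 (1.83), Cd48 (1.78), Fat1 (1.76), Fn3krp (1.62), Ube2d2 (1.75), Med14 (1.53), Mtch2 (1.44), Lum (1.42), Usp25 (1.39), Brcc3 (1.32), Rapgef2 (1.57), Col1a1 (2.83), Col1a2 (2.76), Bglap (2.66), Adipoq (2.06). Those with a smaller value were Zfp438 (-1.0), Ltbp2 (-0.91), Hspb7 (-1.01), Ubqln4 (-0.79), Tctn1 (-0.81), Gpr4 (-1.32), Cxcr5 (-1.06). These tests share the day 267 arrays with the main comparison.

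Probe sets that list no gene, or several, entered no comparison. Fitted apart, 12 of 5851 of them were higher in 3 mg/kg lining cells on day 267 and 0 lower (0.205% called).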

How the results depend on the processing

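No paired analysis was possible because the labels carry no replicate number (the numbers used here follow the order of deposition), and no array had an outlying signal range, so that alternative gave no value. Against the 110 genes reported, the day 267 comparison called 28 after quantile normalization, 734 with array weights, 406 in the fit of the compared groups alone, 37 with the signal range as covariate, and 0 without vehicle replicates 1 and 5 (a choice made after seeing the data). Leaving out each array gave 9 (without vehicle replicate 1) to 187 (without vehicle replicate 3) genes. Counts were also more than 1.5 times lower without vehicle replicate 5 (24) and without 3 mg/kg replicates 1 (66), 2 (51), 3 (35) and 5 (40). All 110 kept their sign throughout, but they were chosen by the same arrays. Of them, 22 passed in every planned setting beside those that leave out an array. Against 0, the response of day 267 minus day 183 called 6 with quantile normalization, 200 with array weights, 168 in the fit of these groups alone and 4 with the covariate, and 0 to 6 with an array left out. Against 134, the response of day 267 minus day 197 called 28, 79 with the mean of probe sets, 462, 386, 14 with the covariate, 3 without both vehicle arrays, and 30 to 211 with an array left out. Against 0, the lining cell minus osteocyte response called 3 with the mean of probe sets, 13 with array weights, 3 in the fit of these groups alone, 1 with the covariate and 2 with the trend and robust prior, and 0 to 6 with an array left out. The signal range difference of 0.17 ran from 0.13 to 0.21, past the threshold in 6 of 10. The fits of fewer arrays have fewer samples; the cause of the other shifts was not tested. Signal over background is not known here, and dim genes are the less certain.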
